A study of Mus musculus with 19 samples.

Results

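The TGF-β genes followed here are 3 ligands (Tgfb1, Tgfb2 and Tgfb3), 3 receptors (Tgfbr1, Tgfbr2 and Tgfbr3), the SMADs Smad3, Smad6 and Smad7, and the latent-TGF-β-binding-protein family member Ltbp2. These 10 genes were picked by symbol from 20408 genes measured by bulk RNA-Seq, and all 10 were among the 14845 genes with enough reads to be tested. The suprarenal abdominal aorta (SRA) was taken 24 h after the start of a subcutaneous infusion of Ang II or saline. The groups were 5 saline-infused and 5 Ang II-treated IKKβ+/+ mice, and 4 saline-infused and 5 Ang II-treated IKKβ-/- mice. All 19 were male, ApoE-/- and given tamoxifen, and all carried SMA-CreERT2, a tamoxifen-inducible Cre under the smooth muscle actin promoter. The labels give an age of 8 weeks, which in the methods is the age at the start of tamoxifen, before a rest and the infusion. The IKKβ-/- mice also carried the Ikkβ Flox/Flox alleles. Ikbkb was therefore deleted in vascular smooth muscle cells (VSMCs), and the other cells of the wall kept it. The labels give the dose of Ang II as 500 to 1000 ng/min/kg, and the methods for these libraries name 1000.

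TGF-β ligands are secreted bound to a latency peptide and, in the vessel wall, are stored on microfibrils through latent TGF-β binding proteins. Once released, a ligand binds TGFBR2, which recruits and phosphorylates TGFBR1. The receptor pair then phosphorylates SMAD2 and SMAD3, which enter the nucleus with SMAD4. SMAD6 and SMAD7 are inhibitory SMADs that act at the receptors, and their genes are themselves targets of SMAD signaling. In the aorta the pathway is known for its part in matrix synthesis and in inherited aneurysm, in which mutations of the ligand, receptor and SMAD3 genes occur.

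RNA levels of 3 of the 10 genes were lower in IKKβ-/- than in IKKβ+/+ SRAs when the genotype difference was averaged over both infusions, namely Ltbp2, Smad3 and Tgfb1, where 3.45% of all genes tested were lower. That average was chosen after the data were seen, and the 10 genes with earlier results of these data known. With saline alone and with Ang II alone, none of the 10 passed between genotypes. Tgfb1 did not pass without mice X2385 and X2406, nor without X2384 and X2385. Smad6 was the 1 of 10 that passed with Ang II in IKKβ-/- SRAs, as higher, where 2.59% of all genes tested were higher. The call held for 4 of 9 mice each left out alone. None of the 10 passed the threshold with Ang II in IKKβ+/+ SRAs, where 8.66% of all genes tested did. The effect of Ang II was not shown to differ between genotypes for any of the 10. The threshold was an adjusted p under 0.1 together with a fold change above 1.2, in a limma fit over all genes tested, with Benjamini-Hochberg adjustment. RNA was extracted from the whole vessel segment, so fewer cells of a type and less RNA per cell cannot be told apart.

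On the GRCm38 build Tgfb1 lies at chr7:25687002-25705077 (plus strand), Tgfb2 at chr1:186622792-186705989 (minus) and Tgfb3 at chr12:86056745-86079041 (minus). Tgfbr1 lies at chr4:47353222-47414931 (plus), Tgfbr2 at chr9:116084293-116175360 (minus) and Tgfbr3 at chr5:107106570-107289629 (minus). Smad3 (chr9:63646767-63757994) and Smad6 (chr9:63953076-64022059) are neighbors on the minus strand of the same chromosome. Ltbp2 lies at chr12:84783212-84876532 (minus). The exons of Tgfb2, Tgfb3 and Ltbp2 overlap transcripts annotated on the opposite strand, and those of Tgfbr3 overlap a transcript on its own strand. These overlapping genes had at most 20.4 normalized counts in any mouse, against at least 572 for the 4 genes they overlap.

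The promoters of Ltbp2 and Smad6 are shown because both hold a sequence motif known for SMAD3 and SMAD4. Ltbp2 had the lowest fold of the 10 genes in the genotype difference averaged over both infusions. Smad6 was the 1 of 10 genes that passed with Ang II in IKKβ-/- SRAs, and it did not pass with Ang II in IKKβ+/+ SRAs. RefSeq start sites on GRCm38.p6 were available for 7 of the 10 genes, in windows from 250 bases before to 50 bases after the start site. The runs are printed from 250 bases before to 10 bases after it, in the direction of transcription. Capitals mark CAGAC or its complement GTCTG (the SMAD box) and the 8-base palindrome GTCTAGAC, which holds no CAGAC.
Ltbp2, chr12:84876482-84876741, minus strand: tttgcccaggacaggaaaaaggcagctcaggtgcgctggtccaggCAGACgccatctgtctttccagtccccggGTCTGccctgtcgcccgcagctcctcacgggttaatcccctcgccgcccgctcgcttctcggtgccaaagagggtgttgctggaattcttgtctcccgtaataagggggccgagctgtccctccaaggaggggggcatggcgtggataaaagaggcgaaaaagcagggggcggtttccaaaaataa
Smad6, chr9:64022050-64022309, minus strand: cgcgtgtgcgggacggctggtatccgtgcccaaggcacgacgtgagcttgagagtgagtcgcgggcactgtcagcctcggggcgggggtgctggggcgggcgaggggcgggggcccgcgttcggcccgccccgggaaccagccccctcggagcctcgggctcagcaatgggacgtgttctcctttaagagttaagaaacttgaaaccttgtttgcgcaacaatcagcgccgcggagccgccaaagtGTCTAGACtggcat
The Ltbp2 window held CAGAC in either orientation at 3 places, starting 205 and 176 bases before the start site and 28 bases after it (the last is not printed). The Smad6 window held the palindrome once, starting 4 bases before the start site, and no CAGAC. The window of Tgfb2 held CAGAC at 2 places and that of Tgfbr2 at 1. Tgfbr1 has 2 windows, 1 with a CAGAC that starts 203 bases before the start site and 1 with neither motif, and those of Smad3 and Tgfb1 held neither motif. Of all 32851 RefSeq windows of this length, 49.6% held CAGAC and 0.213% held GTCTAGAC, on either strand. The NF-κB consensus, searched because IKKβ activates NF-κB, was in 4.51% of all windows and in none of the 8 windows of the 7 genes. The matches are a description of the letters and were not tested for binding.

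The checks on the mice came first. Ikbkb had 430.2 to 672 normalized counts in the 9 IKKβ-/- mice and 594 to 791 in the 10 IKKβ+/+ mice, a log2 difference of -0.40 (SE 0.09, adjusted p = 0.0232) averaged over both infusions. Reads on genes numbered 11382573 to 19906694 per mouse, and each of the 10 genes had 214 to 9165 reads in each mouse. Mitochondrial genes took 5.99 to 9.07% of the reads in saline-infused and 10.1 to 14.1% in Ang II-treated IKKβ+/+ mice, and 8.89 to 38.7% and 7.88 to 37.2% in the IKKβ-/- mice. Summed adipocyte markers reached 39381 in Ang II-treated IKKβ-/- mice against at most 4763 in saline-infused ones. Macrophage markers summed to 4591 to 6698 in saline-infused IKKβ-/- mice against 7639 to 10185 in saline-infused IKKβ+/+ mice. Smooth muscle markers (8 genes, among them Acta2 and Myh11) were the most abundant list, at 309864 to 647800. Neural and Schwann cell markers summed to 4743 in the Ang II-treated IKKβ+/+ mouse X2356, against at most 1422 in any other mouse. The mouse numbers form a separate block in each group and no batch is stated, so a batch cannot be told apart from the groups.

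**Figure D1:**
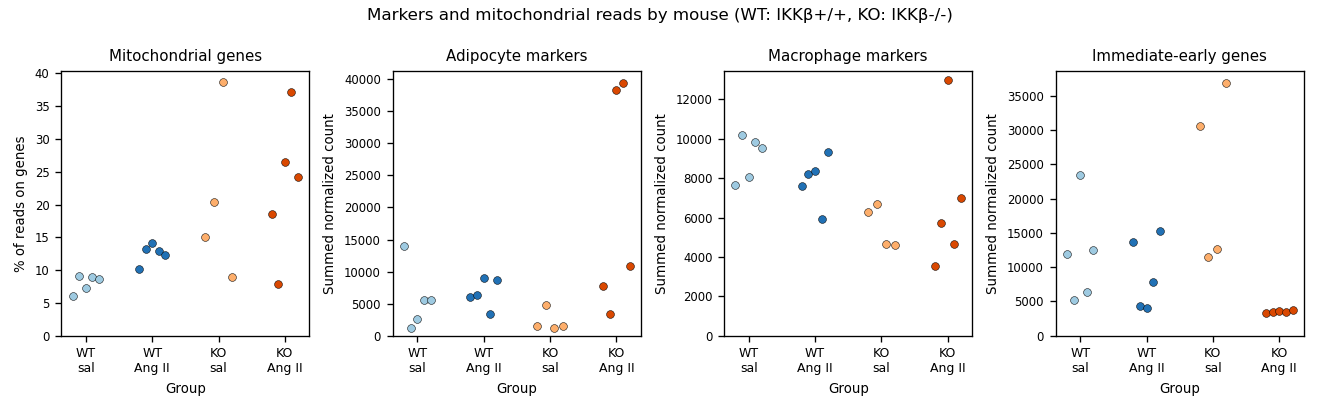
Each point is a mouse; the y axes give the share of reads on mitochondrial genes in percent, and the summed normalized counts of adipocyte markers, macrophage markers and immediate-early genes, by group on the x axis. The Ang II-treated IKKβ-/- mice X2384 and X2385 stand apart in adipocyte markers, and X2385 and the saline-infused IKKβ-/- mouse X2406 have the highest mitochondrial shares (37.2 and 38.7%).

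Levels of the 10 genes were compared with each other as normalized counts per kb of exon. Tgfb3 had by far the highest level, 1541 ± 420.4 normalized counts per kb (SD, n = 19), and was the highest of the 10 genes in 19 of 19 mice. It made up 69.6% ± 6.08 of the summed ligand level per kb, Tgfb2 17.2% ± 5.59 and Tgfb1 13.3% ± 3.53 (SD, n = 19). Smad3 had the lowest level, 96.5 ± 21.4 per kb, and was the lowest of the 10 genes in 18 of 19 mice.

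Between these ends the order by the mean level per kb was Tgfb2 (399.7 ± 213), Tgfbr1 (384 ± 76.4), Tgfbr2 (325 ± 72.3), Tgfb1 (280.4 ± 55.2), Ltbp2 (272 ± 88.4), Smad6 (198 ± 63.5), Tgfbr3 (193 ± 52.5) and Smad7 (191 ± 42.0). Each neighboring pair in this part of the order overlapped widely. Tgfb2 exceeded Tgfbr1 in 10 of 19 mice, Smad6 exceeded Tgfbr3 in 7 of 19 and Tgfbr3 exceeded Smad7 in 9 of 19. Among the receptors, Tgfbr1 exceeded Tgfbr2 in 16 of 19 mice, by 0.25 ± 0.35 on the log2 scale per kb (SD). Tgfb2 was the most variable of the 10 genes, with 132 to 891 normalized counts per kb over the 19 mice.

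**Figure D2:**
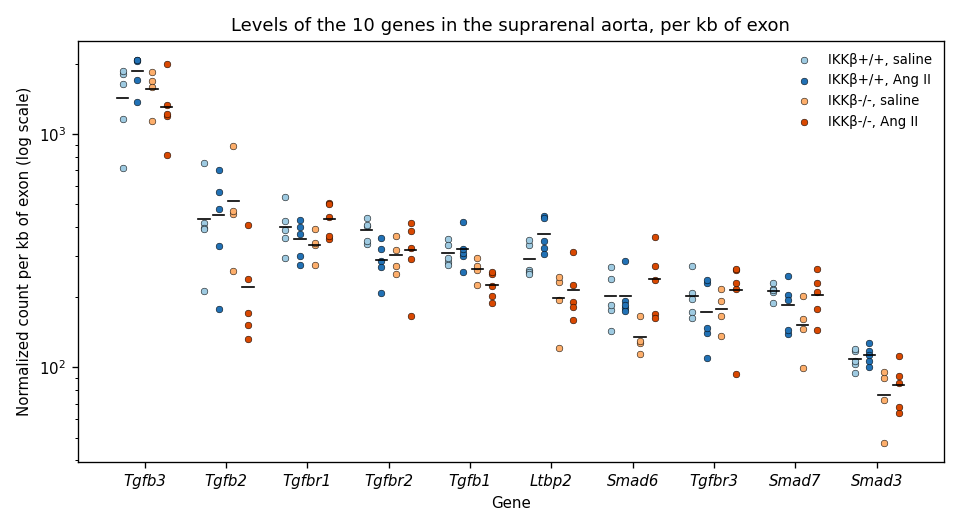
Normalized counts per kb of exon (log scale) for the 10 genes, ordered by their mean; each point is a mouse, colored by group, and each short line is a group mean. Tgfb3 lies above the other 9 genes in every mouse, Smad3 lies at the bottom, and the 8 genes between them overlap.

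The effect of the deletion was examined first with the genotype difference averaged over both infusions, a comparison chosen after the data were seen. Ltbp2, Smad3 and Tgfb1 passed the threshold, all lower in IKKβ-/- SRAs. This was 3 of 10 genes, against 3.45% of all genes tested that were lower and 7.24% that passed in either direction. The 10 genes were themselves chosen with earlier results of these data known, so these shares are a description and not a test. The median log2 difference of the 10 genes was -0.19, and that of all genes tested was -0.02.

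LTBP2 is a microfibril protein of the latent TGF-β binding family that, unlike its relatives, does not bind latent TGF-β. In saline-infused IKKβ+/+ mice Ltbp2 had 1776, 2264, 2385.2, 1736 and 1694 normalized counts, and in Ang II-treated ones 2201, 3015, 2349, 2956 and 2081. In saline-infused IKKβ-/- mice it had 1572, 1313, 816 and 1652, and in Ang II-treated ones 1286, 2111, 1078, 1228 and 1531. With saline the genotypes did not overlap, which was also so for 8.76% of all genes tested. With Ang II the genotypes overlapped, and 4 of 5 IKKβ-/- mice lay below every IKKβ+/+ mouse. The share of all genes with that pattern was not computed. Averaged over both infusions Ltbp2 was lower by a log2 difference of -0.71 (SE 0.14, adjusted p = 0.0173), a fold of 0.612 with a 95% interval of 0.4996 to 0.749. The call held in all 29 alternatives, with an adjusted p between 0.000535 and 0.0745.

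SMAD3 is the receptor-activated SMAD that carries the signal of TGF-β to the nucleus. Smad3 had 528, 483, 599, 540.2 and 609.7 normalized counts in saline-infused IKKβ+/+ mice and 650.1, 513, 543, 596 and 577 in Ang II-treated ones. In IKKβ-/- mice it had 457, 241, 486 and 369 with saline and 323, 435, 343, 469 and 568 with Ang II. Of the 9 IKKβ-/- mice 7 lay below every IKKβ+/+ mouse, and the spread was wider among them. The averaged log2 difference was -0.50 (SE 0.12, adjusted p = 0.0388), a fold of 0.706 with a 95% interval of 0.591 to 0.844. The adjusted p ranged from 0.00865 to 0.0983 over 29 alternatives, and a required fold change above 1.5 was the 1 alternative in which it did not pass.

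TGF-β1 is the ligand made by most cell types of the wall, by platelets and by macrophages. Tgfb1 had 616, 596, 775, 729 and 640.0 normalized counts in saline-infused and 914, 651, 674, 703 and 556 in Ang II-treated IKKβ+/+ mice. The IKKβ-/- mice had 567, 641, 492 and 591 with saline and 549, 439.7, 486, 411 and 558 with Ang II. Every one of the 9 IKKβ-/- mice lay below the median of the IKKβ+/+ mice, and 5 lay below all of them. The averaged log2 difference was -0.37 (SE 0.09, adjusted p = 0.0405), a fold of 0.775 with a 95% interval of 0.678 to 0.886. It passed in 26 of 29 alternatives. It did not pass at a required fold change above 1.5, nor without mice X2385 and X2406, which had the highest mitochondrial shares (adjusted p = 0.171), nor without X2384 and X2385, which had the highest adipocyte markers (adjusted p = 0.116).

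**Figure D3:**
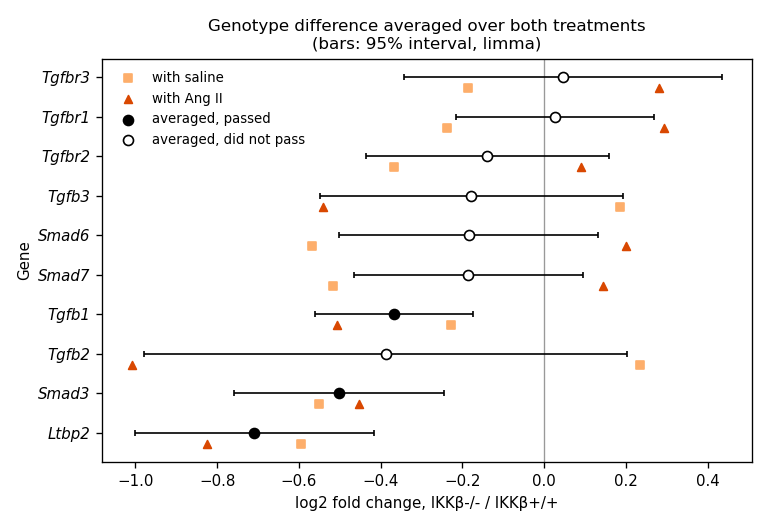
Log2 fold change of IKKβ-/- relative to IKKβ+/+ SRAs for each gene; circles with bars are the limma estimate averaged over both infusions with its 95% interval, filled where it passed the threshold, squares are the difference with saline and triangles the difference with Ang II. Ltbp2, Smad3 and Tgfb1 lie below 0 with both infusions, and the other 7 genes lie on opposite sides of 0 with saline and with Ang II.

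The other 7 genes did not pass in the averaged comparison, with log2 differences between -0.39 for Tgfb2 (SE 0.28) and 0.05 for Tgfbr3 (SE 0.19). The 95% interval for Tgfbr1, the type I receptor, was -0.21 to 0.27 on the log2 scale, and that for Tgfbr2, the type II receptor, was -0.44 to 0.16. Tgfbr3, a co-receptor that presents TGF-β2, had an interval of -0.34 to 0.44. Macrophage markers moved with the genotype: 4 of 8 passed and all 4 were lower in IKKβ-/- SRAs, and the median log2 difference of the 8 was -0.62. With Ang II their sum was 3514 to 12965 in IKKβ-/- and 5931 to 9325 in IKKβ+/+ mice. No smooth muscle, fibroblast or endothelial marker passed in this comparison. The log2 differences of all 8 fibroblast markers (median -0.29) and all 8 endothelial markers (median -0.34) were below 0, and 3 endothelial markers had an unadjusted p under 0.05. The median of the smooth muscle markers was 0.06. The part of these cells in the lower Ltbp2, Smad3 and Tgfb1 was not tested.

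Separately for each infusion, none of the 10 genes passed in limma. With saline 5.47% of all genes tested passed. An unadjusted p under 0.05 was found for 4 of the 10, against 19.2% of all genes tested. The lowest adjusted p values belonged to Smad3 (log2 difference -0.55, SE 0.18, adjusted p = 0.104) and Ltbp2 (-0.59, SE 0.20, adjusted p = 0.119), where 3 of 4 and 4 of 4 IKKβ-/- mice lay below every IKKβ+/+ mouse. Non-overlapping groups, as for Ltbp2, were found in 8.76% of all genes tested. Both inhibitory SMADs had values of the same sign, -0.57 (SE 0.22, adjusted p = 0.165) for Smad6 and -0.52 (SE 0.20, adjusted p = 0.153) for Smad7. DESeq2 on the recovered reads called Ltbp2 (adjusted p = 0.0918) and Smad3 (adjusted p = 0.077) in this comparison, among 9.69% of all genes tested.

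With Ang II 0.128% of all genes tested passed the threshold, 19 genes in all. An unadjusted p under 0.05 was found for 5 of the 10, against 14.3% of all genes tested. Ltbp2 had a log2 difference of -0.82 (SE 0.19, adjusted p = 0.143) and Tgfb1 one of -0.51 (SE 0.13, adjusted p = 0.153). Both passed with DESeq2 (adjusted p = 0.0128 and 0.0235), which called 3.51% of all genes tested. Both also passed without mouse X2380 (adjusted p = 0.0865 and 0.0806), where 1.92% of all genes passed, and without X2356 (adjusted p = 0.0662 and 0.0772), where 3.73% did and Tgfb2 passed as well (adjusted p = 0.0854). Without mouse X2383 Ltbp2 passed alone of the 10 (adjusted p = 0.0519), where 0.781% of all genes passed. These settings called more genes of all kinds than the 19 above. Of the 10 mice each left out alone, Ltbp2 passed for 3 and Tgfb1 for 2. Without X2385 the limma adjusted p was 0.375 for Ltbp2 and 0.381 for Tgfb1. Without X2384 and X2385 it was 0.554 for both. Tgfb2 had a log2 difference of -1.01 (SE 0.39, adjusted p = 0.262), Tgfb3 of -0.54 (SE 0.24, adjusted p = 0.325) and Smad3 of -0.45 (SE 0.17, adjusted p = 0.246). The log2 differences of the 3 receptors were 0.09 to 0.29. The genotypes overlapped in all 3 ligands and all 3 receptors, and none of the 6 passed.

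With Ang II in IKKβ+/+ SRAs none of the 10 genes passed in limma, edgeR or DESeq2, where 8.66% of all genes tested did in limma. An unadjusted p under 0.05 was found for 1 of 10, against 20.3% of all genes tested, so neither count sets the 10 genes apart. That gene was Tgfbr2, which had 2780.5, 2839.9, 3323, 3336 and 3571 normalized counts with saline and 1704, 2346, 2632, 2215 and 2938 with Ang II. In 4 of 5 Ang II-treated mice it lay below every saline-infused mouse (log2 difference -0.44, SE 0.20, adjusted p = 0.209). Fibroblast markers summed to 18088 to 42946 with Ang II against 39734 to 48131 with saline, and 2 of 8 fell. Smooth muscle markers summed to 464324 to 647800 with Ang II against 334569 to 446231 with saline, and 3 of 8 rose. Endothelial markers summed to 12377 to 24049 against 21632 to 36772, and 1 of 8 fell. The part of these cells in the values of Tgfbr2 was not tested.

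Of the ligands, Tgfb3 had a log2 difference of 0.44 (SE 0.24, adjusted p = 0.329) with Ang II in IKKβ+/+ SRAs, Tgfb1 of 0.05 (SE 0.13) and Tgfb2 of 0.03 (SE 0.39). The 95% interval for Tgfb1 was -0.22 to 0.31, and that for Tgfb2 was much wider, -0.78 to 0.84. Ltbp2 had a difference of 0.35 (SE 0.19, adjusted p = 0.313). Smad3, Smad6 and Smad7 had differences of 0.06, 0.02 and -0.22, with intervals that include 0.

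In IKKβ-/- SRAs Smad6 was the 1 of 10 genes that passed with Ang II, where 5.29% of all genes tested passed and 2.59% passed as higher. SMAD6 inhibits BMP and, more weakly, TGF-β signaling. Smad6 had 339, 378, 386 and 495 normalized counts with saline and 1074, 701, 502, 482 and 811 with Ang II. Of the 5 mice given Ang II 4 exceeded all 4 saline-infused ones, and the fifth, X2385 with 482, lay below the highest saline value. The log2 difference was 0.78 (SE 0.22, adjusted p = 0.0600), a fold of 1.72 with a 95% interval of 1.25 to 2.37. The call was lost without mouse X2380, X2386, X2401, X2403 or X2406, each left out alone, with an adjusted p of up to 0.163. In IKKβ+/+ mice Smad6 had 424 to 799 normalized counts with saline and 519.8 to 846 with Ang II.

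Tgfb2 had 2355.9, 4634, 1349 and 2426 normalized counts in saline-infused IKKβ-/- mice and 2130.2, 1250.1, 791, 689 and 887 in Ang II-treated ones. In 4 of 5 Ang II-treated mice it lay below every saline-infused mouse, and the saline-infused mice were themselves widely spread. The log2 difference was -1.22 (SE 0.41, adjusted p = 0.119), which did not pass. It passed without mouse X2380 (adjusted p = 0.0458), where 6.99% of all genes passed, and without X2406 (adjusted p = 0.0906), where 2.93% did, and the adjusted p reached 0.302 without X2403, the mouse with the highest value.

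Smad7 had a log2 difference of 0.44 (SE 0.20, adjusted p = 0.242) with Ang II in IKKβ-/- SRAs, and Tgfbr1 of 0.36 (SE 0.17, adjusted p = 0.264). Smad7 had 643, 705, 436 and 887 normalized counts with saline and 1155, 1003, 919, 636 and 776 with Ang II. Tgfbr1 had 2519.9, 2147, 1757 and 2194 with saline and 2277, 3258, 2340.3, 3213 and 2823 with Ang II. In both genes 3 of 5 mice given Ang II exceeded all 4 saline-infused ones. Adipocyte markers, of which 6 of 8 rose with Ang II in IKKβ-/- SRAs, summed to 3372 to 39381 against 1225 to 4763 with saline. Immediate-early genes, of which 6 of 7 fell, summed to 3314 to 3675 against 11450.4 to 36932, and the part of both lists in these values was not tested. Without X2384 and X2385, the mice richest in adipocyte markers, the difference of Smad6 was 1.10 (adjusted p = 0.0378) and that of Tgfb2 was -0.88 (adjusted p = 0.403).

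**Figure D4:**
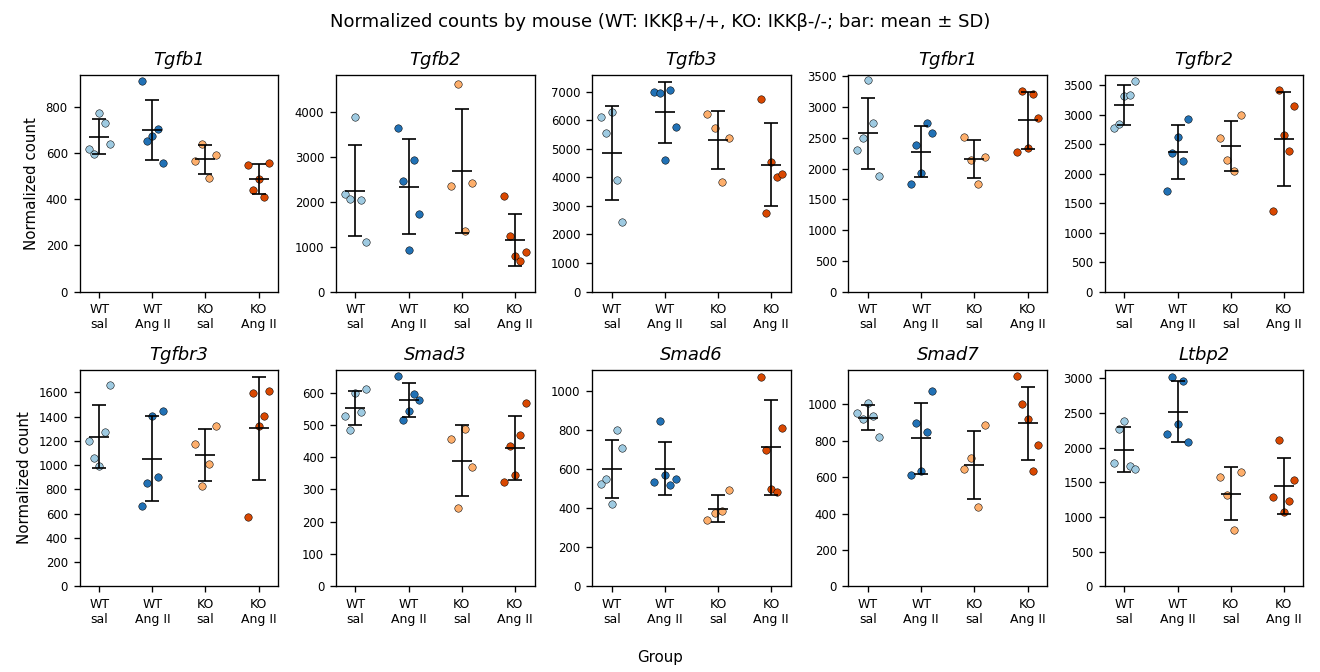
Normalized counts of the 10 genes by group (y axis from 0); each point is a mouse and each bar the mean ± SD, with n = 5 except n = 4 in saline-infused IKKβ-/- mice. The means of Ltbp2, Smad3 and Tgfb1 are lower in both IKKβ-/- groups, and none of them passed between genotypes with either infusion alone. The mean of Smad6 is lowest in saline-infused IKKβ-/- mice (339 to 495).

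Whether Ang II acted differently in the 2 genotypes was tested as the difference between its effects. No gene of the 14845 passed (0%), so none of the 10 did, and at an unadjusted p under 0.05 there were 1654 genes (11.1%). DESeq2 called 279 genes and the quasi-likelihood test of edgeR 3, none of them among the 10. Among the 10 genes 4 had an unadjusted p under 0.05. The difference was 0.77 for Smad6 (SE 0.30), 0.66 for Smad7 (SE 0.27), 0.53 for Tgfbr1 (SE 0.23) and -1.24 for Tgfb2 (SE 0.57), with adjusted p of 0.3695, 0.378, 0.413 and 0.426. The effects of Ang II on these genes are thus not shown to differ between genotypes, and their 95% intervals were wide, as for Smad6 (0.13 to 1.40).

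Averaged over both genotypes, a comparison chosen after the data were seen, none of the 10 genes passed with Ang II, where 12.7% of all genes tested did in limma. An unadjusted p under 0.05 was found for 2 of 10, against 24.7% of all genes tested. DESeq2 and edgeR each called 1, Smad6. Smad6 came closest, with a log2 difference of 0.40 (SE 0.15, adjusted p = 0.105), and Tgfb2 had -0.59 (SE 0.28, adjusted p = 0.199).

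**Figure D5:**
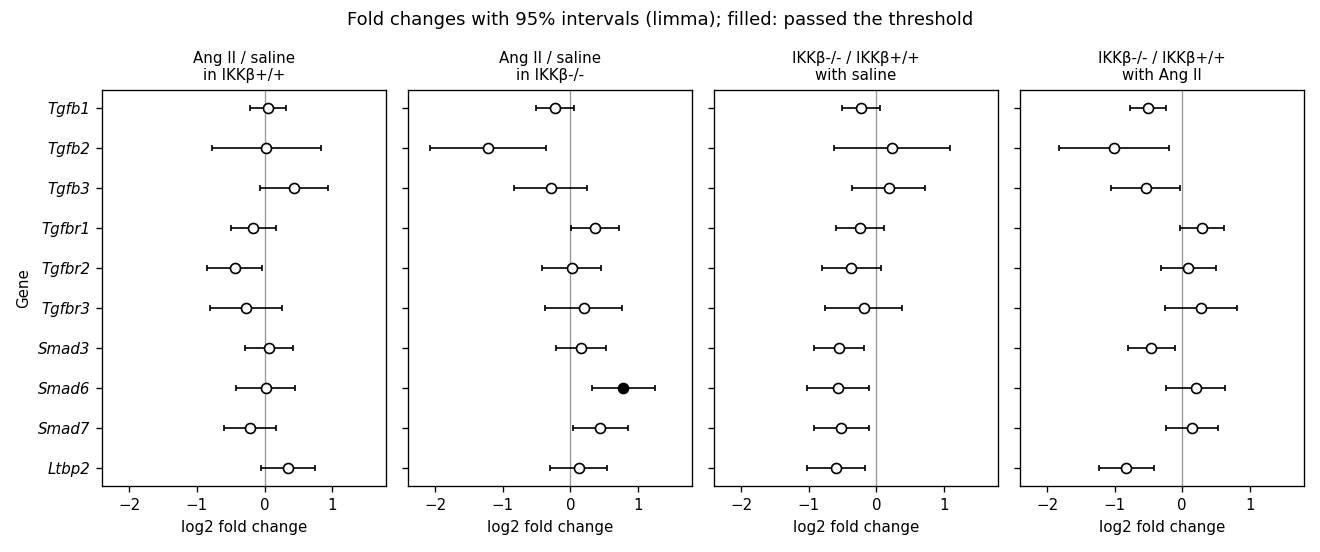
Log2 fold changes of the 10 genes with 95% intervals (limma) in the 4 comparisons between pairs of groups; filled circles passed the threshold. Smad6 with Ang II in IKKβ-/- SRAs is the 1 filled circle, and the interval of Tgfb2 is the widest in each panel.

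Other genes of the pathway were taken from a list of 95, of which 94 were in the table and 93 were tested. With Ang II in IKKβ+/+ SRAs 10 rose and 4 fell, against 4.33% of all genes tested that rose and 8.66% that passed, and the median log2 difference of the 93 was 0.02. Of 26 target genes 5 rose: Adam12, a metalloprotease, by 3.07 (SE 0.54), Timp1, an inhibitor of metalloproteases, by 1.68 (SE 0.36), Cdkn1a, a cell cycle inhibitor, by 1.02 (SE 0.24), the transglutaminase gene Tgm2 by 0.89 (SE 0.24) and the matrix gene Postn by 0.84 (SE 0.19). Among 15 genes of latent storage and activation Ltbp4 (-0.75, SE 0.16) and Ltbp3 (-0.46, SE 0.13), binding proteins of latent TGF-β, fell, and the integrin gene Itgb1 rose (0.64, SE 0.19). Of 13 inhibitors Pmepa1 rose (0.63, SE 0.16) and Fmod, a matrix proteoglycan that binds TGF-β, fell (-1.05, SE 0.33). In the BMP and activin branch Fstl3 (1.09, SE 0.24), Inhba (0.79, SE 0.25) and Fst (0.59, SE 0.19) rose, where FST and FSTL3 bind activins and INHBA is an activin subunit, and the receptor gene Bmpr1a fell (-0.48, SE 0.14).

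With Ang II in IKKβ-/- SRAs 6 of the 93 rose and 3 fell, against 2.59% of all genes tested that rose and 5.29% that passed. Adam12 (2.41, SE 0.57), Cilp (1.45, SE 0.44) and Snai1 (1.09, SE 0.35) rose among the targets and Ccn1 fell (-2.71, SE 0.60). Ccn1 also responds as an immediate-early gene and had 10242 to 43346 normalized counts in saline-infused IKKβ-/- mice against 2750.2 to 12538 in saline-infused IKKβ+/+ mice. Acvr1c (4.27, SE 1.12), a type I receptor that adipocytes express, rose (0.726 to 17.9 normalized counts with saline, 7.94 to 413 with Ang II), and Fst (0.82, SE 0.20) and the BMP target Id3 (0.55, SE 0.12) rose as well. Bambi, a pseudoreceptor that blocks TGF-β receptors, fell (-1.17, SE 0.23), and so did Ltbp3 (-0.48, SE 0.13).

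For the genotype averaged over both infusions 1 of the 93 was higher and 10 were lower in IKKβ-/- SRAs, with a median log2 difference of -0.19. Of all genes tested 7.24% passed and 3.45% were lower, the share against which the counts in each list stand. Of the 15 storage and activation genes 5 were lower: Itgb3 (-0.62, SE 0.16), the fibrillin gene Fbn1 (-0.57, SE 0.16), Furin (-0.50, SE 0.09), whose protease cleaves the TGF-β precursor, Ltbp4 (-0.41, SE 0.12) and Ltbp3 (-0.30, SE 0.09). Of the 26 targets 4 were lower: Adam12 (-1.72, SE 0.39), Cdkn1a (-0.64, SE 0.17), the collagen crosslinking gene Lox (-0.61, SE 0.14) and Postn (-0.43, SE 0.14). The BMP receptor gene Acvr1 was lower (-0.37, SE 0.10) and Ndrg2 was higher (0.26, SE 0.08). None of the 8 other signal transducers, which include Smad2 and Smad4, passed in any of the comparisons. With saline alone 3 of the 93 were lower and 1 was higher, where 5.47% of all genes tested passed. Fbn1 (-0.81, SE 0.24), Ltbp4 (-0.69, SE 0.17) and Furin (-0.53, SE 0.14) were lower and Ndrg2 was higher (0.45, SE 0.12). With Ang II alone none of the 93 passed, where 0.128% of all genes tested did.

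The genes whose log2 values followed those of Ltbp2 most closely over the 19 mice were Col18a1 (Pearson r = 0.917), Nomo1 (0.907) and Loxl1 (0.904). For deviations from the group means the same r were 0.807, 0.812 and 0.793. Smad3 was followed by Stambpl1 (0.818), Adam19 (0.804) and Rel (0.784), with 0.726, 0.613 and 0.601 for the deviations. Tgfb1 was followed by Tnks1bp1 (0.811), Iffo2 (0.81) and P2ry2 (0.81), with 0.714, 0.7565 and 0.767 for the deviations. Smad6 was followed by Mapk14 (0.876), Atoh8 (0.808) and Neurl4 (0.779), with 0.813, 0.652 and 0.602 for the deviations. These r describe the closest of 11421 genes with a mean of at least 50 normalized counts, and depth and tissue composition varied between the mice.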

How the data were processed

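RNA-Seq of 19 mice was read from a single table. The authors prepared stranded poly(A) libraries, used Trimmomatic 0.35 for trimming and STAR 2.7.1a for alignment to GRCm38, counted them on Gencode genes and normalized with DESeq2 1.30.1. The deposited values are a signal, namely counts divided by the size factor of each mouse, and all (100%) were whole multiples of 1 read within 0.02 reads, so reads were recovered. Whether counting used strand is not given in the sources used here.

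A gene was tested where 4 or more mice reached 10 normalized counts, which kept 14845 and left out 5563. Log2(value + 1) was fitted in R 4.3.3 with limma 3.58.1 (lmFit, eBayes with trend), as 1 model with 4 group means. Tests were two-sided, adjusted by Benjamini-Hochberg over all genes tested. Fold changes are on this log2 scale and understate low genes. Depth, 11382573 to 19906694 reads on genes per mouse, limits genes with few reads; intervals come from the spread between mice. Mice are separate animals, and no 2 mice of the same group agreed within sampling noise. Exon lengths are the union of protein-coding transcripts in GENCODE vM21, whose coordinates for the 10 genes equal those of the table.

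All 10 genes are named in every comparison. Pathway genes are named where they passed, at most 6 per list, and the 3 closest genes for at most 4 of the 10. The genes and lists were chosen with earlier results of these data known. Alternatives were a pseudocount of 4, no filter, only the groups compared, array weights, TMM and the quasi-likelihood test of edgeR 4.0.16, DESeq2 1.42.0, thresholds of 0.05 for the adjusted p or 1.5 for the fold change, and each mouse left out. The comparisons averaged over genotypes or infusions, the removal of 2 mice at a time and the NF-κB consensus were chosen once the data had been seen. The limma fit was checked on simulated data with known changes for Ang II in IKKβ+/+ mice. The simulated mice had the same spread in every group, unlike the real ones. That check therefore bears on the code and not on the results given here. Protein sequences were not used here.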

Additional observations from a re-analysis of the deposited data

Results flagged for a closer look

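Single mice stood apart from their group in 2 of the 40 combinations of gene and group, where chance alone gives about 1 in 20. Tgfbr3 was 572 normalized counts in the Ang II-treated IKKβ-/- mouse X2380, against 1323 to 1614 in the other 4 mice of that group. Its fibroblast markers summed to 12138, against 27019 to 49527 in the others. Smad6 was 846 normalized counts in the Ang II-treated IKKβ+/+ mouse X2352, against 519.8 to 570.4 in the other 4. The part of tissue composition in either value was not tested.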

How the results depend on the processing

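No paired analysis was possible because the groups share no replicate numbers. Averaged over both infusions, the same 3 genes were lower in IKKβ-/- SRAs with each mouse left out, and 1 of 10, Ltbp2, at a fold change above 1.5. With Ang II in IKKβ-/- SRAs the count of 1 became 0 with only the groups compared or an adjusted p under 0.05, 2 with array weights (Smad6 and Tgfb2), and 0 to 1 with a mouse left out. The count of 0 became 1 with Ang II in IKKβ+/+ SRAs under array weights (Ltbp2) or only the groups compared (Tgfbr2). For genotype with saline it became 2 with DESeq2, 1 with TMM, 3 with array weights, 3 with only the groups compared and 0 to 3 with a mouse left out. For genotype with Ang II it became 2 with DESeq2 and 0 to 3 with a mouse left out. For Ang II averaged over both genotypes it became 1 with DESeq2, edgeR or either pair of mice removed (Smad6), 2 with array weights and 0 to 1 with a mouse left out. The cause of these changes was not tested.

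Signs turned for values whose 95% interval in the main fit included 0. Not all of them were close to 0, as for genotype with saline, where the main fold was 1.176 for Tgfb2 and 1.138 for Tgfb3. With Ang II in IKKβ+/+ SRAs Tgfb1 was -0.00312 with array weights. In IKKβ-/- SRAs Tgfbr2 was -0.0525 and Ltbp2 -0.0487 without X2385 and X2406, and Ltbp2 was -0.0403 with array weights. Averaged over infusions the genotype difference of Tgfbr3 was -0.00527 without X2384 and X2385. Averaged over genotypes Tgfb3 was -0.0149 with array weights and Tgfbr3 was 0.0177 with DESeq2 and 0.0189 with edgeR. With a mouse left out, the ranges that crossed 0 were, with Ang II in IKKβ+/+ SRAs, Smad6 -0.11 to 0.13, Tgfb1 -0.054 to 0.125 and Tgfb2 -0.20 to 0.32. In IKKβ-/- SRAs they were Ltbp2 -0.10 to 0.24, Smad3 -0.0532 to 0.283 and Tgfbr2 -0.10 to 0.23, and for the difference between the effects Smad3 -0.11 to 0.22. For genotype they were Tgfb2 -0.0737 to 0.519 and Tgfb3 -0.0438 to 0.332 with saline, Tgfbr2 -0.0266 to 0.305 with Ang II, and Tgfbr1 -0.0249 to 0.0838 and Tgfbr3 -0.028 to 0.184 averaged. For Ang II averaged they were Tgfb3 -0.0435 to 0.15 and Tgfbr3 -0.10 to 0.10. No value that had passed changed sign. Of 1660 values over 70 combinations of gene and comparison, 1567 kept both their sign and their side of the threshold.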

Other observations

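Levels of the 10 genes were also related to each other across the 19 mice. Of 45 pairs 5 had a Benjamini-Hochberg adjusted permutation p of r under 0.05. Among them were Tgfb1 and Tgfb2 (r = 0.67), Tgfb2 and Tgfb3 (0.672) and Tgfb2 and Tgfbr3 (-0.676), each with an adjusted permutation p of 0.0157. Tgfbr2 and Tgfbr3 had Pearson r = 0.84 (permutation p = 2e-05, adjusted p = 0.0009) and Spearman rho = 0.74 (permutation p = 0.00053, adjusted p = 0.0063). Leaving out the 2 mice farthest from the median of Tgfbr2 gave r = 0.656. Tgfb3 and Tgfbr3 ran in opposite directions, with r = -0.715 (permutation p = 0.00068, adjusted p = 0.0153), rho = -0.735 (permutation p = 0.00056, adjusted p = 0.0063) and r = -0.657 without the 2 farthest mice. Within groups, for deviations from the group means, r was 0.898 for Tgfbr2 and Tgfbr3 and -0.691 for Tgfb3 and Tgfbr3. No p was computed for the deviations, and the p above are for all 19 mice, which differ in genotype and infusion. The mouse lowest in Tgfbr2 and Tgfbr3, X2380, was also the lowest in fibroblast markers (12138 against 18088 to 49527 in the other 18 mice), and their part in these relations was not tested.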
